A study of Mus musculus with 16 samples.

Results

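Anti-Müllerian hormone (AMH) was given to isolated mouse ovarian follicles for 12 h, and their transcripts were compared with those of untreated follicles. The comparison took in the 4 arrays titled as AMH-treated at 12 h and the 4 titled as control at 12 h, 8 of the 16 arrays of the series. The other 8 arrays came from a second set of cultures collected at 24 h and served as a repeat. Follicles between the preantral and the small antral stage were dissected from female C57BL/6Tac mice, aged 8 weeks in the sample labels and 6 to 8 weeks in the design text. For each experiment the follicles of 8 mice were pooled, and drops of that pool received 50 or 0 ng/ml recombinant AMH. Medium of both arms held the gonadotropins follicle-stimulating hormone (FSH, 80 IU/L) and luteinizing hormone (LH, 10 IU/L), so the control was a gonadotropin-treated follicle and not an unstimulated one. Each sample was made of 6 to 9 follicles and started from 5 ng of total RNA. AMH and control arrays of one replicate number shared a pool and formed a pair, which gave 4 pairs. The question was which transcripts differed with AMH after 12 h.

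AMH belongs to the TGF-β family and is secreted by the granulosa cells of growing follicles. It binds the type II receptor AMHR2, which recruits a type I receptor shared with the bone morphogenetic proteins (ACVR1, BMPR1A or BMPR1B). The type I receptor then phosphorylates SMAD1, SMAD5 and SMAD9, which enter the nucleus with SMAD4 and act on target genes such as the Id family. In the ovary AMH is known for holding back the recruitment of primordial follicles and for lowering the response of growing follicles to FSH.

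No gene passed the test at 12 h, so every gene below is described by its values, and the word "change" stands for the difference in log2(signal + 1.46), AMH minus control, in a limma fit with the pairs as a block. The genes that led the ranking were Igfbp5, with lower signals on AMH arrays, and Vstm4, Kcnk1 and Atp1b2, with higher ones. Upstream sequences are shown for 4 of the 24 genes described first below, so that base composition and any letters of SMAD sites can be seen. Igfbp5 and Vstm4 had the smallest p in their direction. Mrps6 and Sat1 ranked lower and are among the genes whose windows hold GGCGCC, so the 4 do not stand for the 24. Each run is the 250 bases before the annotated start, 5′ to 3′ on the gene's own strand, from RefSeq on GRCm38.p6. Capitals mark matches, on either strand, to GGCGCC (a GC-rich element bound by SMAD1 and SMAD5), CAGAC or its complement GTCTG (which hold the SMAD box), or TGACG or CGTCA (the core of the cyclic AMP response element). Igfbp5 lies at chr1:72874866-72875115 on the minus strand, Vstm4 at chr14:32856506-32856755 on the plus strand, Mrps6 at chr16:92058086-92058335 on the plus strand and Sat1 at chrX:155216450-155216699 on the minus strand.
Igfbp5: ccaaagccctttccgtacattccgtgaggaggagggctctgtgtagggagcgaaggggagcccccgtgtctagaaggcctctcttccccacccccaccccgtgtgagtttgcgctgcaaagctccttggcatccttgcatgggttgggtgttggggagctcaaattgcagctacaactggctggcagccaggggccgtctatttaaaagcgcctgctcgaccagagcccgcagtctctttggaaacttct
Vstm4: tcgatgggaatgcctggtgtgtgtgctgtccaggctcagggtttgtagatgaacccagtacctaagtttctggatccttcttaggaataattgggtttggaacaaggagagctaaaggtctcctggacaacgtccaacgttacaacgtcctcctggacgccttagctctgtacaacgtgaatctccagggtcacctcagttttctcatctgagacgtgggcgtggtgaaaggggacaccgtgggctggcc
Mrps6: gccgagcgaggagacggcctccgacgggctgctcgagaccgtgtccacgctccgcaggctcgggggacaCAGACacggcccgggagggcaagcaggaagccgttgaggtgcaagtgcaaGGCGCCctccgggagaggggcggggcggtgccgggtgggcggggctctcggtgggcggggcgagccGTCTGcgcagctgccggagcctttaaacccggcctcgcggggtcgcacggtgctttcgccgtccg
Sat1: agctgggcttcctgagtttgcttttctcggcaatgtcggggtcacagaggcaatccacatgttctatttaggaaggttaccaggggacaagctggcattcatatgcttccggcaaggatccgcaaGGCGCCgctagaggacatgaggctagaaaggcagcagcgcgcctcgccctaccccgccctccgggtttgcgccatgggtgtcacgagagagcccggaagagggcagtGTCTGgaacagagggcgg

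None of these full matches occurred in the windows of Igfbp5 and Vstm4. The shorter GTCT, the SMAD box within GTCTG, occurs in both of these windows and was neither searched for nor marked. Mrps6 held the GC-rich element, CAGAC and GTCTG, and Sat1 held the GC-rich element and GTCTG. The window of Slc5a3, which starts 14 bases from that of Mrps6, held the same 3 matches, and these genes overlap by 29138 bases on one strand. Of the 24 genes chosen for the smallest p values below, 21 had a window, 10 of them with a change above 0 and 11 with one below. GGCGCC was found in 1 of the 10 (Mmp11) and in 4 of the 11 (Efnb2, Mrps6, Sat1 and Slc5a3, of which Mrps6 and Slc5a3 share the match), against 9.59% of the 32851 windows searched. CAGAC or GTCTG was found in 6 of the 10 and 6 of the 11, against 42.2% of all windows, and TGACG or CGTCA in 0 of the 10 and in 2 of the 11 (Alcam and Efnb2), against 17.8%. The full element TGACGTCA was in none of the 21 and in 1.55% of all windows. The GC content was 74.4% in the Mrps6 window, 59.6% in that of Sat1, 58.8% in that of Igfbp5 and 52.4% in that of Vstm4. A match is a description of letters and was not tested as a binding site.

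The 12 h arrays were alike in overall signal. Their median deposited signal lay between 27.8 and 32.8, and between 57.7% and 61.5% of probe sets were at or over the filter level (a signal of 16.6). Across the 12172 genes tested, log2 levels of arrays in one group correlated at 0.923 or above. The arrays of each pair deviated together from their group means, with correlations of 0.299, 0.349, 0.56 and 0.214 for pairs 1 to 4, while control and AMH arrays of different pairs ranged from -0.455 to 0.232. The arrays carried transcripts of the cell types of a follicle and its surroundings. Granulosa genes such as Foxl2 (log2 level 9.16 ± 0.12 in controls and 9.3 ± 0.27 with AMH, SD, n = 4) and Inha (10.52 ± 0.66 and 10.7 ± 0.47) were well over the filter level of 4.18, while Fshr was under it on 4 of 8 arrays. The mean of 15 granulosa genes was 8.37 ± 0.51 in controls and 8.38 ± 0.49 with AMH, and both arrays of pair 3 were lowest, at 7.64 and 7.78. The mean of 25 oocyte genes differed most between arrays. In controls it was 8.24, 7.86, 9.15 and 6.72, and with AMH 7.70, 7.85, 8.18 and 7.70, so controls of pairs 3 and 4 held the highest and the lowest value. In these bulk samples fewer cells of a type and less RNA per cell cannot be told apart.

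**Figure D1:**
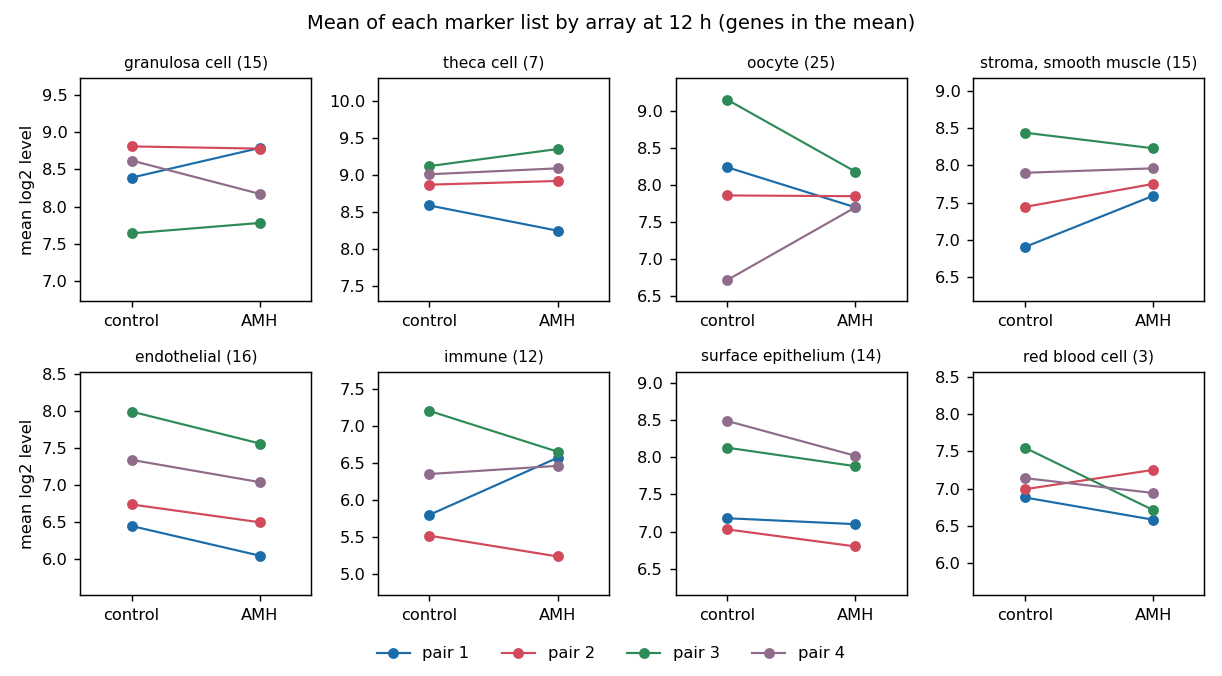
Mean log2 level of 8 lists of cell type markers in each 12 h array, one line per pair from control to AMH; the vertical axis spans the same number of log2 units in all panels, and panel titles give the genes in each mean. The oocyte mean ran from 6.72 to 9.15 and went down in pair 3 and up in pair 4, while the endothelial and surface epithelium means were lower with AMH in 4 of 4 pairs.

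Over the whole array, limma called 0 of 12172 genes (0%) at an adjusted p under 0.05, and 788 genes (6.47%) had an unadjusted p under 0.05. Of those, 530 (4.35%) had higher signals with AMH and 258 (2.12%) had lower ones. The change was above 0 for 6325 genes (52%), above 0 in 4 of 4 pairs for 1245 (10.2%) and below 0 in 4 of 4 pairs for 938 (7.71%). The 4 AMH arrays lay wholly above the 4 control arrays for 200 genes (1.64%) and wholly below them for 118 (0.969%). Changes were small on the whole: the median size was 0.132, 95% of genes lay under 0.523, and only 64 genes (0.526%) differed by 1 or more in either direction. A typical gene had a standard error (SE) of 0.175, and its 95% confidence interval reached 0.386 to either side. Precision followed the signal, with a median SE of 0.269 among the dimmest of 3 equal groups of genes, 0.166 in the middle group and 0.122 among the brightest. Known changes were put into 200 genes of simulated data for these 12172 genes, with noise drawn independently for each gene. Of those changed by 1, 63% were called, and of those changed by 2, 91%. Even changes of 1 were thus often missed in that setting. Smaller changes and other numbers of changed genes were not simulated.

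**Figure D2:**
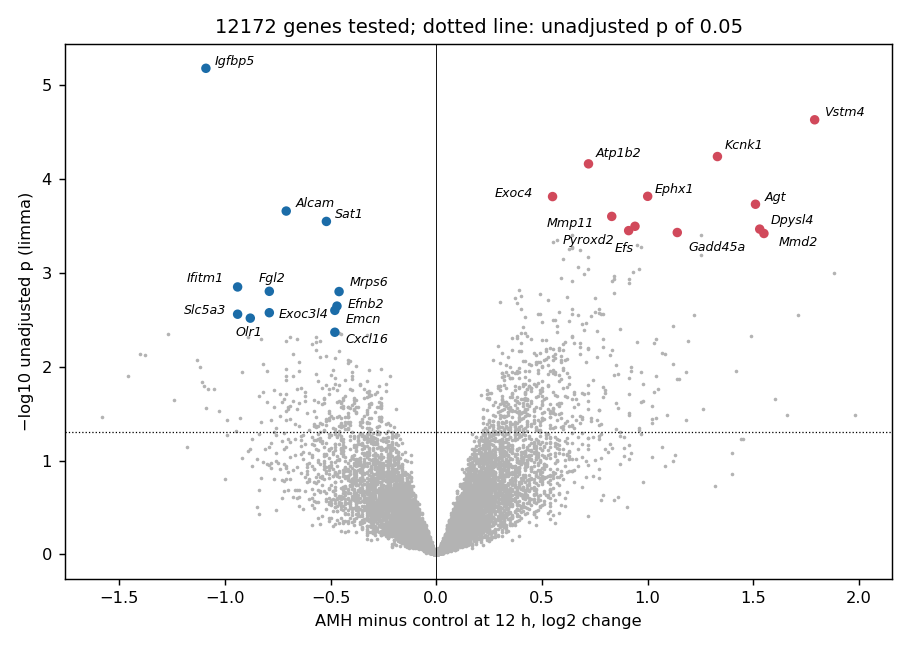
Each point is 1 of 12172 genes, with the change at 12 h (log2, AMH minus control) on the horizontal axis and -log10 of the unadjusted limma p on the vertical axis. Coloured points are the 24 named genes with the smallest p among those with one direction in 4 of 4 pairs, and Igfbp5 stands highest, at an adjusted p of 0.0813.

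The genes described first were the 12 in each direction with the smallest p among the 2183 (17.9%) that had one direction in 4 of 4 pairs. Values that led to this choice are a description. Among the 12 with higher signals with AMH were a membrane protein, ion transport genes, an adaptor of adhesion signalling and a growth arrest gene. Signals are given as deposited, to 3 significant digits, in the order of replicates 1 to 4. Vstm4, a transmembrane protein of the immunoglobulin superfamily, was at 9.99, 18.7, 19.1 and 16.8 in controls and at 40.5, 66.2, 70.9 and 59.0 with AMH. Control signals were close to the filter level and no AMH array reached down to them. The change of 1.79 (SE 0.25, limma adjusted p = 0.144) was nearly equal in each pair, from 1.73 to 1.87.

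Kcnk1, a potassium channel subunit, was at 125, 104, 38.5 and 76.0 in controls and at 498, 203, 102 and 155 with AMH. Its groups overlapped because pair 3 was low in both arms, but each AMH array was higher than its own control, with a change of 1.33 (SE 0.21, adjusted p = 0.212). The second probe set of Kcnk1 gave 0.59 and was above 0 in 3 of 4 pairs. Atp1b2, a β subunit of the sodium and potassium pump, showed the same layout at higher signals, with 974, 622, 232 and 601 in controls and 1820, 1240, 337 and 816 with AMH. Its change was 0.72 (SE 0.12, adjusted p = 0.212) and its second probe set gave 0.86. Mmp11, a matrix metalloproteinase, was also lowest in pair 3, at 415 in the control and 515 with AMH, against 777 to 1100 and 1290 to 2790 in the other pairs. Kcnk1, Atp1b2 and Mmp11 thus had their lowest pair where the granulosa mean was lowest, and the part of cell content in their values was not tested.

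Gadd45a, a growth arrest gene that responds to DNA damage and stress, was at 270, 278, 187 and 265 in controls and at 914, 601, 390 and 415 with AMH. The groups did not overlap and the change was 1.14 (SE 0.22, adjusted p = 0.277), from 0.64 in pair 4 to 1.75 in pair 1. Agt, the precursor of angiotensin, was at 34.7, 12.0, 13.0 and 19.3 in controls and at 64.0, 53.8, 31.4 and 79.8 with AMH. The control of pair 1 lay above the AMH array of pair 3, so the groups overlapped, and 2 control arrays were under the filter level. Ephx1, the microsomal epoxide hydrolase, had 81.8 to 158 in controls and 188 to 262 with AMH, with no overlap and a change of 1.00 (SE 0.18). Efs, a docking protein of Src family kinases, had 120 to 177 and 234 to 358, with a change of 0.91 (SE 0.18). Pyroxd2 (0.94) and Mmd2 (1.55) did not overlap either, while Dpysl4 (1.53), Mmp11 (0.83) and Exoc4 (0.55), a subunit of the exocyst, did. Of the 5 probe sets of Exoc4 over the filter, which ranged from 0.11 to 0.55, 1 had an unadjusted p under 0.05. Adjusted p values of these 12 genes ran from 0.144 to 0.277.

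Igfbp5 encodes a binding protein of insulin-like growth factors (IGFs) that follicle cells secrete, and it led the genes with lower signals. It was among the brighter transcripts, at 3310, 3370, 2380 and 3000 in controls and at 1160, 1830, 1030 and 1770 with AMH. Every AMH array lay under every control array. The change was -1.09 (SE 0.13, 95% interval -1.39 to -0.79, adjusted p = 0.0813), 2.13-fold lower, and pairs ranged from -1.52 to -0.76. A second probe set gave a smaller difference of -0.62 and was below 0 in 4 of 4 pairs.

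Other genes with lower signals included membrane, transport and secreted proteins. Slc5a3, which carries myo-inositol into cells with sodium, was at 1040, 718, 953 and 789 in controls and at 371, 465, 392 and 607 with AMH, a change of -0.94 (SE 0.24, adjusted p = 0.479) without overlap. Its 3 probe sets gave differences from -1.36 to -0.94. Mrps6, a protein of the small subunit of the mitochondrial ribosome, had a change of -0.46 (SE 0.11) without overlap, and its second probe set gave -0.63. All 5 probe sets were below 0 in 4 of 4 pairs. Because the genes overlap on one strand, probe sets of one could take up RNA of the other, and they are not independent observations.

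Alcam, a cell adhesion molecule, was at 640, 1020, 606 and 824 in controls and at 294, 771, 423 and 478 with AMH. These groups overlapped, the change was -0.71 (SE 0.13, adjusted p = 0.277) and the 4 probe sets of Alcam ran from -0.8 to -0.42. Sat1, which acetylates spermidine and spermine for breakdown or export, was at 1130, 979, 1680 and 1330 in controls and at 818, 664, 1130 and 961 with AMH. Its groups overlapped by pool, but each pair differed by a similar amount and the change was -0.52 (SE 0.10). Ifitm1, an interferon-induced membrane protein, had a change of -0.94 that was -0.61 without pair 1. The remaining genes were the chemokine Cxcl16 (-0.48), the ephrin ligand Efnb2 (-0.47), the endothelial surface protein Emcn (-0.48), Fgl2 (-0.79), Exoc3l4 (-0.79, no overlap) and the oxidized lipoprotein receptor Olr1 (-0.88). Adjusted p values of the 12 genes ran from 0.0813 to 0.561. Among the 24 genes, 10 had groups that did not overlap, 6 of them higher and 4 lower. Of all genes, 1.64% lay wholly higher and 0.969% wholly lower. Choice by small p and one direction in 4 of 4 pairs favours such genes, so nothing is read from the count. Of the 24 genes, 13 had several probe sets over the filter, each with one sign in all of them, and in 7 of the 13 every probe set had an unadjusted p under 0.05. Over the whole array, 50.1% of the 6216 genes with several such probe sets had one sign in all of them. The 24 genes were chosen on the brightest of the same probe sets, so this is a description.

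**Figure D3:**
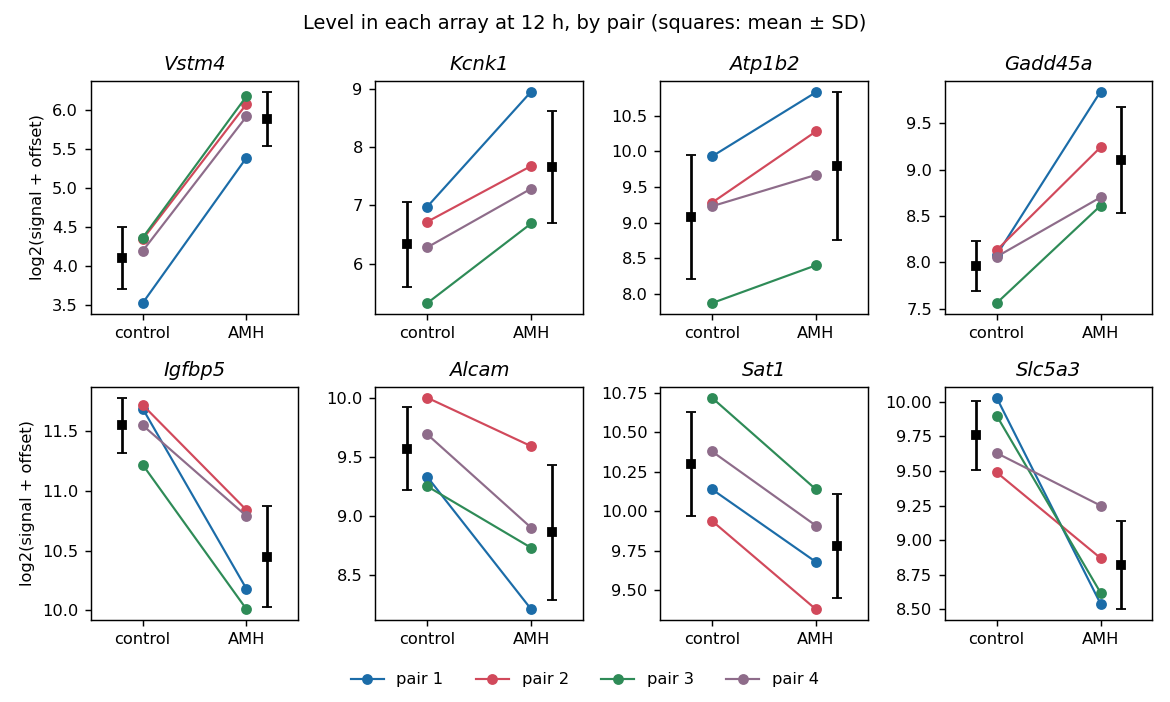
Level of 8 genes in each 12 h array as log2(signal + 1.46), one line per pair, with squares for the mean of 4 arrays and bars for its SD; the vertical axis differs between panels and does not start at 0. The AMH point of each line lies above its control for Vstm4, Kcnk1, Atp1b2 and Gadd45a and below it for Igfbp5, Alcam, Sat1 and Slc5a3, while the groups overlap for Kcnk1, Atp1b2, Alcam and Sat1.

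Genes with a large change whose groups did not overlap were named by a further rule, 5 in each direction. With higher signals these were Vstm4 and Mmd2 together with Mapk10, a Jun N-terminal kinase, Olfml2b and Morn1. Mapk10 was at 10.0 to 19.8 in controls and 28.2 to 135 with AMH, a change of 1.88 (SE 0.42, adjusted p = 0.368), with 2 arrays under the filter level. With lower signals they were Igfbp5, Cnnm1, the peptide hormone genes Cck and Oxt, and Snap25, a protein of vesicle fusion. Cck was at 143, 87.3, 155 and 117 in controls and at 35.0, 36.8, 65.6 and 72.7 with AMH, a change of -1.27 (SE 0.36, adjusted p = 0.561). Oxt (-1.05) and Snap25 (-1.13) had signals of 25.6 to 48.2 in controls and 7.21 to 24.3 with AMH, near the filter level. The lowest change of this group belonged to Cnnm1, at -1.58 (SE 0.65), where control replicate 1 was at 113 and the other controls at 26.3 to 33.6.

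In the AMH signalling pathway itself, 8 receptor and SMAD genes were measured. None passed the test, 5 changes were above 0 and 3 below, and the median was 0.08 against 0.01 over all genes. Amhr2, the receptor specific to AMH, was at 831, 888, 691 and 574 in controls and at 1490, 1330, 635 and 761 with AMH. Its change was 0.43 (SE 0.16, 95% interval 0.07 to 0.78, adjusted p = 0.686), and pair 3 went the other way. Among type I receptors Bmpr1a had a change of 0.24 (95% interval -0.01 to 0.49) with 4 of 4 pairs above 0, Bmpr1b of 0.15 (-0.22 to 0.52) and Acvr1 of -0.08 (-0.33 to 0.16). Over 26 other settings of the processing and fit, the change of Bmpr1a ran from 0.01 to 0.31. The signal carriers had small values: Smad1 had a change of 0.09 (-0.19 to 0.37), Smad5 of -0.17 (-0.43 to 0.09) and Smad4 of -0.02 (SE 0.08). Smad9 was on the array under the signal filter and was not tested. Amh itself was dim, at 17.3, 53.9, 16.0 and 45.5 in controls and 30.4, 27.5, 29.2 and 20.3 with AMH, so that its interval ran from -1.27 to 1.03. Its change of -0.12 was 0.16 without pair 2 and 0.21 without pair 4.

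Of 13 measured genes known to respond to the SMADs of this pathway, 7 changes were above 0 and 6 below, with a median of 0.03, and none passed the test. The Id genes, which encode inhibitors of basic helix-loop-helix factors, had changes on both sides of 0. Id1 was at 157, 200, 213 and 298 in controls and at 161, 178, 176 and 259 with AMH, a change of -0.15 (95% interval -0.48 to 0.17). Id2 had a change of 0.38 (-0.22 to 0.98) and Id3 of 0.19 (-0.31 to 0.68), each above 0 in 2 of 4 pairs, and Id4 had one of -0.38 (SE 0.33). The inhibitory SMADs, which feed back on the receptors, had changes of 0.49 for Smad6 (-0.04 to 1.01, 3 of 4 pairs above 0) and 0.14 for Smad7 (-0.59 to 0.87), the latter -0.11 without pair 1. Hey1, a transcriptional repressor, had a change of -0.45 (-0.92 to 0.02), and Grem1, a secreted antagonist of bone morphogenetic proteins, of -0.7 (-1.83 to 0.44). Without pair 1 the change of Smad6 was 0.25 and that of Grem1 -0.16, and without pair 3 that of Hey1 was -0.24. The median of the list went from 0.36 in pair 1 to -0.37 in pair 3. For Id1 the interval leaves out an increase of 1 or more on the log2 scale; for Id2, Id3, Smad6 and Smad7 the upper bounds lay between 0.68 and 1.01.

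The inhibin and activin system, through which granulosa cells signal to the pituitary and to each other, had 9 measured genes, with 6 changes above 0, 3 below and a median of 0.12. Inha, the subunit found only in inhibin, had a change of 0.18 (-0.16 to 0.52). Inhba, a subunit of activin A and inhibin A, had one of -0.36 (-0.94 to 0.22), which was -0.02 without pair 4. Inhbb was at 508, 1390, 227 and 1060 in controls and at 819, 2170, 491 and 384 with AMH, so 3 pairs were above 0 and pair 4 below it. Its change of 0.25 (-0.98 to 1.47) was -0.04 without pair 3. Fst, the activin-binding follistatin, had a change of -0.28 (-1.27 to 0.72). No gene of this list had one direction in 4 of 4 pairs, where 17.9% of all genes had one.

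Granulosa cell genes were spread about 0. Of 15 measured, 9 changes were above 0 and 6 below, and the median was 0.03. Nr5a2, a nuclear receptor needed for ovulation, was at 1190, 726, 401 and 703 in controls and at 1280, 1360, 531 and 1070 with AMH (change 0.50, SE 0.16, adjusted p = 0.621), above 0 in 4 of 4 pairs. Slc18a2, a vesicular monoamine transporter, was at 816, 417, 407 and 382 in controls and at 463, 380, 165 and 249 with AMH (change -0.71, SE 0.20, adjusted p = 0.561), below 0 in 4 of 4 pairs. The FSH receptor gene Fshr, which reads the hormone whose action AMH is known to temper, had a change of 0.32 (-0.40 to 1.05) at signals near the filter level. Among 14 genes that FSH is known to raise in granulosa cells, 9 changes were above 0 and 5 below, with a median of 0.06. Greb1 was at 1540, 1970, 760 and 1540 in controls and at 2400, 2430, 1020 and 1580 with AMH (change 0.35, SE 0.11, adjusted p = 0.621). Grb14, an adaptor that binds the insulin receptor, had 99.5 to 152 in controls and 132 to 169 on 3 AMH arrays, while AMH replicate 1 was at 1080. Its change of 1.02 was 0.42 without pair 1. Cyp19a1 and Lhcgr were not analysed here, because the annotation used named no probe set for them.

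Theca cells, which make androgen precursors under LH, had 7 measured genes with a median of 0.04, and steroid synthesis with cholesterol transport had 13 with a median of 0.02. Cyp17a1, which makes androgens, was dim, at 16.8, 12.9, 30.1 and 19.9 in controls and at 3.92, 11.8, 21.2 and 15.7 with AMH. Its change of -0.67 (-1.36 to 0.03) was -0.3 without pair 1, and 4 of 8 arrays were under the filter level. Hsd3b1, which forms progesterone, had a change of 0.21 (-0.02 to 0.44), and Scarb1, the lipoprotein receptor that brings in cholesterol, of -0.26 (-0.84 to 0.33). The 18 measured genes of cholesterol synthesis had 14 changes below 0 with a median of -0.09, but pairs did not share a direction: the median was -0.42 in pair 1, 0.06 in pair 2, 0.58 in pair 3 and -0.51 in pair 4. Dhcr7, Fdps, Mvd and Sqle had changes between -0.26 and -0.19, with intervals that included 0.

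Low values also marked the response of follicles to ovulatory LH, the genes by which granulosa and cumulus cells expand their matrix and rupture the follicle. Of 20 measured genes 16 had changes below 0 and 4 above, and the median was -0.44 against 0.01 over all genes. Pair medians were -0.45, -0.22, -0.15 and -0.35. Below 0 in 4 of 4 pairs were 8 of the 20 genes, where 7.71% of all genes were, and 5 of the 20 had an unadjusted p under 0.05 in that direction, where 2.12% of all genes did. This and the other gene lists were chosen with earlier results of these data known, so their counts are a description. None of the 20 genes passed the test across all genes, and the lowest adjusted p was 0.479, for Efnb2. Efnb2 (-0.47) and Snap25 (-1.13), already named above for their 12 h values, are among both the 8 and the 5. Il11, a cytokine, was at 116, 79.0, 417 and 252 in controls and at 26.0, 22.6, 205 and 148 with AMH, a change of -1.40 (SE 0.43, adjusted p = 0.593). Its AMH arrays were lower in each pair, and pairs 3 and 4 were high in both arms.

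Among the matrix genes of this response, Tnfaip6, which links hyaluronan, had a change of -1.11 (SE 0.38), Ptx3, which organises the cumulus matrix, of -1.18 (SE 0.59), Vcan, a proteoglycan, of -0.42 (SE 0.18) and Has2, which makes hyaluronan, of -0.56 (SE 0.35). Ptgs2, which makes prostaglandins, had a change of -0.55 (SE 0.41), and the epidermal growth factor-like ligands Ereg and Btc had changes of -0.46 (SE 0.40) and -0.48 (SE 0.22). Tnfaip6, Vcan, Has2, Ptgs2 and Ereg were below 0 in 4 of 4 pairs, and Ptx3 and Btc in 3. The 4 members above 0 were Nrip1, Ptger4, Runx1 and Cited4. Nrip1, a nuclear receptor corepressor needed for ovulation, had a change of 0.27 (SE 0.08, 4 of 4 pairs above 0), Ptger4, a prostaglandin receptor, of 0.42 (SE 0.24), Runx1 of 0.2 (SE 0.29) and Cited4 of 0.02 (SE 0.35). Sfrp4, Sult1e1, Star, Dusp6, Adamts1 and Cebpb had changes from -0.58 (Sfrp4, SE 0.56) to -0.08 (Cebpb, SE 0.24). The list's median was -0.20 with a filter at the 60th percentile, which tests fewer genes, and between -0.5 and -0.37 without a pair. In the same 4 pairs the endothelial and surface epithelium means were lower with AMH while the granulosa mean was higher in pairs 1 and 3 and lower in pairs 2 and 4, and the part of cell content in these values was not tested.

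**Figure D4:**
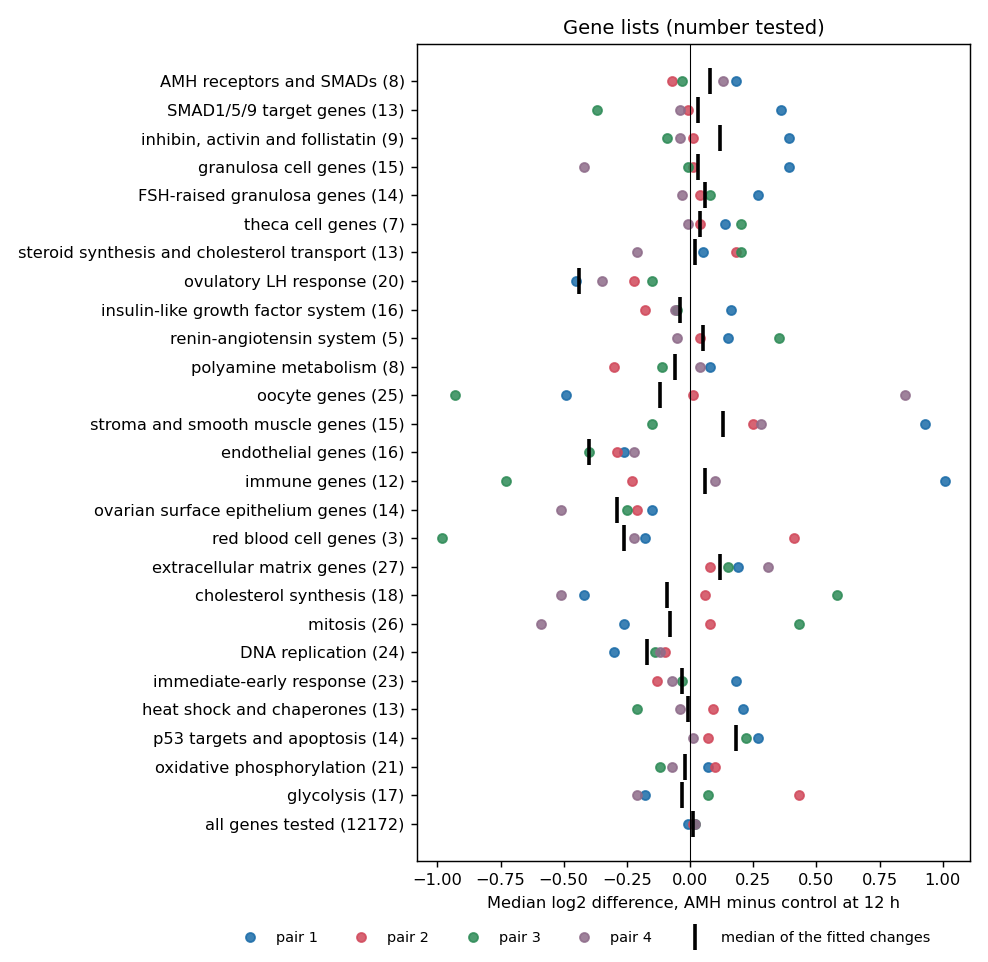
Median log2 difference, AMH minus control at 12 h, of 26 gene lists and of all genes, with a coloured point per pair and a black bar for the median of the fitted changes; numbers tested are in parentheses. The ovulatory response, endothelial, surface epithelium and DNA replication lists have all 4 points below 0, and the extracellular matrix and p53 lists have all 4 above 0. Oocyte points run from -0.93 to 0.85 and all-gene points sit between -0.01 and 0.02.

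Growth factor and peptide systems around the leading genes gave no common direction. Of 16 IGF genes 8 changes were above 0 and 8 below, with a median of -0.04. Igfbp5 was the only member with one direction in 4 of 4 pairs, where 17.9% of all genes had one. Igf1, the ligand, had a change of 0.42 (-0.31 to 1.16), and the binding proteins Igfbp2 and Igfbp7 had changes of 0.21 (-0.15 to 0.58) and 0.17 (-0.05 to 0.39). In the renin-angiotensin system 5 genes were measured. Beside Agt, the converting enzyme Ace had a change of -0.40 (SE 0.16, adjusted p = 0.691, below 0 in 4 of 4 pairs) and the angiotensin-cleaving aminopeptidase Enpep of 0.50 (SE 0.33, above 0 in 4 of 4 pairs). Ace was at -0.19 without pair 4 and Enpep at 0.26 without pair 3. Of 8 polyamine genes 6 changes were below 0, and apart from Sat1 they were small. Odc1, which makes putrescine, had a change of -0.15 (-0.36 to 0.07), and Oaz1, its inhibitor, of -0.07 (-0.27 to 0.13).

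Transcripts of cells outside the granulosa differed in direction by type. The 16 endothelial markers measured had a median of -0.40, with 14 changes below 0 and pair medians of -0.26, -0.29, -0.40 and -0.22. Below 0 in 4 of 4 pairs were 5 of them, where 7.71% of all genes were. Emcn, already named above for its 12 h values, is among the 5. Emcn was at 265, 332, 961 and 514 in controls and at 188, 230, 602 and 440 with AMH, lower in each pair while the groups overlapped widely. Tie1, an endothelial receptor kinase, had a change of -1.08 (SE 0.38), with an AMH signal of 2.43 in pair 1 and 3 arrays under the filter level, and it was -0.65 without pair 1. Pecam1, Flt1 and Esam had changes of -0.45, -0.46 and -0.45, while Eng (-0.05), Tek (0.09) and Ramp2 (0.21) lay near or above 0. The endothelial mean ranged from 6.45 to 7.99 in controls and from 6.05 to 7.56 with AMH. Spread between pools was therefore larger than the difference within a pair.

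The 14 surface epithelium genes had 13 changes below 0, a median of -0.29 and 4 genes below 0 in 4 of 4 pairs, where 7.71% of all genes were. Cldn3, a tight junction protein, had a change of -0.54 (-1.12 to 0.03) and the keratin Krt18 of -0.25 (-0.52 to 0.03). Hba-a2, a globin gene with a near-identical copy whose RNA its probes may also take up, was at 1140, 1300, 1190 and 1320 in controls and at 1010, 979, 998 and 1130 with AMH, which did not overlap, with a change of -0.26 (SE 0.10, adjusted p = 0.696). Immune markers had no common direction, with a pair median of 1.01 in pair 1 and -0.73 in pair 3. Oocyte markers had 20 of 25 changes below 0 and a median of -0.12, but pair medians ran from -0.93 to 0.85. No oocyte marker had one direction in 4 of 4 pairs, where 17.9% of all genes had one. Zp1, Zp2 and Zp3, the coat proteins of the egg, had changes between -0.46 and -0.32 with SEs of 0.38 to 0.42.

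Fibroblast collagens and matrix genes leaned the other way. Of 15 stroma and smooth muscle genes 10 changes were above 0, the median was 0.13 and 5 genes were above 0 in 4 of 4 pairs, where 10.2% of all genes were. Col1a1, a chain of fibrillar collagen, was at 261, 573, 650 and 443 in controls and at 529, 808, 935 and 859 with AMH, a change of 0.75 (SE 0.18, adjusted p = 0.446). Control replicate 1 was low, and each AMH array was higher than its own control. Dcn, a small collagen-binding proteoglycan, was at 198, 351, 283 and 304 in controls and at 311, 568, 581 and 495 with AMH, a change of 0.77 (SE 0.20, adjusted p = 0.479). Col1a2 (0.62), Col3a1 (0.48) and the receptor Pdgfra (0.28) were also above 0 in 4 of 4 pairs. Smooth muscle members did not share this, with Myh11 at -0.53 (SE 0.30), Tagln at -0.32 (SE 0.39) and Acta2 at -0.03 (SE 0.27), nor did the matrix genes Dpt (-0.11) and Ogn (0.00). Pair medians of the list were 0.93, 0.25, -0.15 and 0.28.

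Of 27 matrix genes outside that list 18 changes were above 0, with a median of 0.12 and pair medians of 0.19, 0.08, 0.15 and 0.31. Above 0 in 4 of 4 pairs were 7 of them, where 10.2% of all genes were. In that direction 6 had an unadjusted p under 0.05, where 4.35% of all genes did. Mmp11, already named above for its 12 h values, is among both the 7 and the 6. Mmp2, a gelatinase, was at 371, 376, 424 and 318 in controls and at 438, 484, 599 and 643 with AMH, which did not overlap (change 0.53, SE 0.13, adjusted p = 0.458). Col6a2, a chain of microfibrillar collagen, had a change of 0.49 (SE 0.13), Emilin1, an elastic fibre protein, of 0.59 (SE 0.20) and Col5a1 of 0.41 (SE 0.17). Basement membrane proteins varied, with the laminin Lama1 at 0.53 (SE 0.18, 3 of 4 pairs above 0), Nid2 at 0.24 (SE 0.31), Hspg2 at 0.22 (SE 0.14), Col4a1 at 0.18 (SE 0.09), Col4a2 at 0.1 (SE 0.10), Lamb1 at 0.06 (SE 0.18), Lamc1 at -0.14 (SE 0.12) and Nid1 at -0.17 (SE 0.18). Timp3, a protease inhibitor, had the lowest change, -0.40 (SE 0.14, below 0 in 4 of 4 pairs). The mean of stroma genes lay between 6.90 and 8.44 in controls and 7.59 and 8.23 with AMH, higher with AMH in pairs 1, 2 and 4, and its part in the matrix values was not tested.

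Genes of DNA replication lay below 0 by small amounts. Of 24 measured genes 20 changes were below 0, 8 of them in 4 of 4 pairs, where 7.71% of all genes were. The median was -0.17 with pair medians of -0.30, -0.10, -0.14 and -0.12. None had an unadjusted p under 0.05. Pcna, the sliding clamp, had a change of -0.20 (-0.55 to 0.15), Mcm4, a subunit of the replicative helicase, of -0.26 (-0.75 to 0.22) and Rfc3, of the clamp loader, of -0.33 (-0.70 to 0.05). Of 26 mitosis genes 21 changes were below 0 with a median of -0.08, but pair medians ran from -0.59 in pair 4 to 0.43 in pair 3, opposite in sign to the oocyte medians of 0.85 and -0.93 in the same pairs. Birc5, an inhibitor of apoptosis that serves in mitosis, had a change of -0.48 (SE 0.45) and the kinase Aurka of -0.35 (SE 0.35).

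Stress and growth response genes held single members with larger values. Of 14 targets of p53 and apoptosis genes 10 changes were above 0, and the median was 0.18 with pair medians of 0.27, 0.07, 0.22 and 0.01. Above 0 in 4 of 4 pairs were 4 of them, where 10.2% of all genes were. Gadd45a, already named above for its 12 h values, is among the 4. Beyond Gadd45a the changes were small: Mdm2, which degrades p53, had a change of 0.23 (0.01 to 0.46), Trp53inp1 of 0.18 (-0.01 to 0.38) and Gadd45b of 0.25 (SE 0.20). Cdkn1a, the cell cycle inhibitor, had a change of 0.18 (SE 0.17). Myc, the growth-promoting transcription factor, was at 446, 287, 581 and 417 in controls and at 942, 504, 629 and 548 with AMH, a change of 0.60 (SE 0.19, adjusted p = 0.626), above 0 in 4 of 4 pairs. The 23 immediate-early genes lay on both sides of 0, with 11 changes above, 12 below and a median of -0.03. Above it were also Btg2 at 0.36 (-0.04 to 0.76), Atf3 at 0.35 (SE 0.28) and Junb at 0.34 (SE 0.29), and below it Jun at -0.21 (-0.48 to 0.07) and Nr4a3 at -0.92 (-2.03 to 0.18). Among 13 heat shock genes Hspb1 had a change of 0.34 (0.04 to 0.63), and the median was -0.01. The lists of oxidative phosphorylation and glycolysis had medians of -0.02 and -0.03, with changes from -0.19 to 0.21 and from -0.48 to 0.34.

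The 24 h cultures gave a repeat with other pools. Their AMH change did not enter the choice of the 12 h genes, although their spread entered the SEs and their signals the filter. Of the 12 genes with the smallest p among those higher at 12 h, 4 were above 0 at 24 h (Vstm4, Mmd2, Agt and Kcnk1), and of the 12 lower ones, 2 were below 0 (Alcam and Ifitm1). None of the 24 kept its sign in 4 of 4 pairs. For comparison, 52.0% of the 1245 genes above 0 in 4 of 4 pairs at 12 h were above 0 at 24 h, and 39.4% of the 938 genes below 0 were below. Vstm4 had a change of 0.35 (SE 0.25) at 24 h, with 3 of 4 pairs above 0. Gadd45a was at -0.79 (SE 0.22, below 0 in 4 of 4 pairs) and Slc5a3 at 0.69 (SE 0.24), each on the other side of 0 from 12 h. Igfbp5 was at 0.32 (SE 0.13) and Olr1 at 0.72 (SE 0.23), both above 0 in 4 of 4 pairs. Limma called 2 of all genes at 24 h (0.0164%), Dpt and Spon1, neither among the 24. The difference between both times had an adjusted p from 0.133 to 0.85 over the 24 genes, none past the threshold. All 24 had an unadjusted p under 0.05 for that difference, against 5.64% of all genes, but their 12 h values had been chosen for their size, so nothing is read from that count. Of the lists, the ovulatory response had a median of 0.04 at 24 h against -0.44 at 12 h. The endothelial median was 0.27 against -0.40, that of DNA replication 0.11 against -0.17 and that of p53 targets -0.06 against 0.18. The surface epithelium (-0.12 against -0.29), matrix (0.33 against 0.12) and stroma (0.41 against 0.13) medians kept their sign. Over all genes the median was 0.01 at both times.

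**Figure D5:**
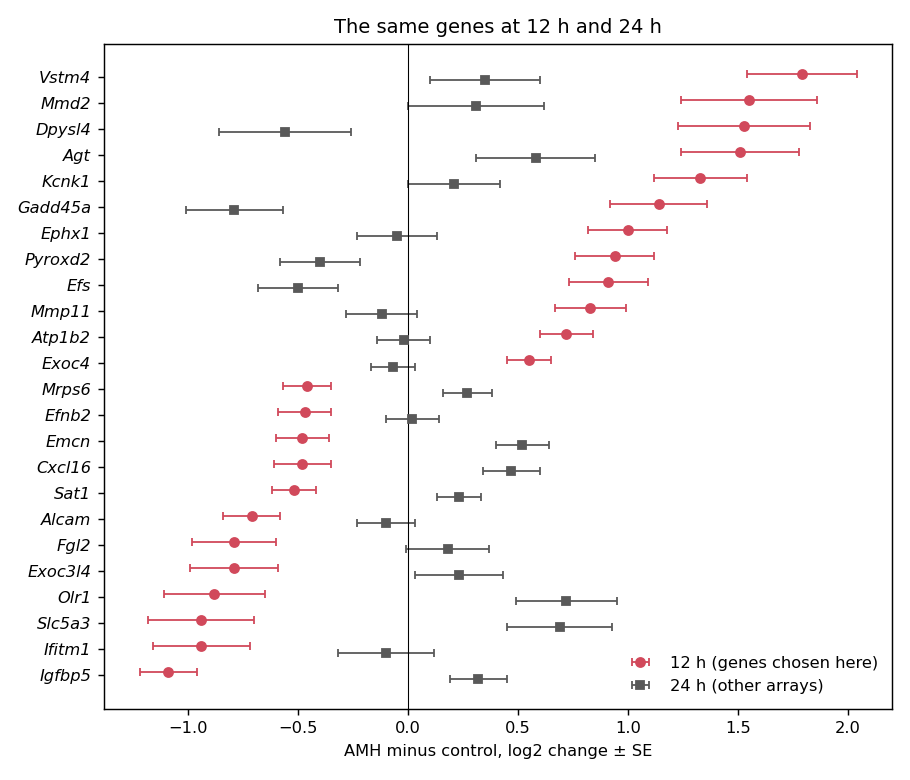
Change with AMH (log2, AMH minus control) of the 24 genes with the smallest p at 12 h, with circles for 12 h, on which the genes were chosen, and squares for the separate 24 h cultures; bars are the SE of the fit. The 24 h values lie between -0.79 and 0.72, and 6 of the 24 keep the sign seen at 12 h.

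Igfbp5 and Vstm4 passed the threshold under some other settings of the fit. Igfbp5 did so in 5 of 26 settings (adjusted p from 0.00472 to 0.664) and Vstm4 in 4 of 25 (0.00717 to 1), and the probe set that stands for Atp1b2 passed in 1 of 26. With each probe set tested on its own, the second probe set of Atp1b2 was the 1 called, at an adjusted p of 0.0315. With the replicate number as a block over both times in place of the pairs, 2 genes were called, Igfbp5 and Vstm4. None of the 24 leading genes changed sign in any setting. They had been chosen for one direction in 4 of 4 pairs, so leaving out a pair could not turn their sign, and nothing is read from that count.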

How the data were processed

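RNA of 16 samples was hybridised to Affymetrix mouse arrays, 4 per group. The deposited values are linear intensities, 1 per probe set, summarised by the authors in MAS5 according to the submitters' processing notes (version and detection calls not analysed here). Every array had the same trimmed mean (150.001, with 2% trimmed at each end), so the arrays had been scaled before deposit. The number of arrays limits the precision.

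The scale was log2(signal + 1.46), with the 10th percentile of all values as the offset, which understates differences of dim genes. Of 45101 probe sets, 64 were controls, 34945 had a single gene in the annotation, 932 several and 9160 none. Probe sets whose mean over 16 arrays reached the 40th percentile were kept, and the brightest stood for its gene. Limma 3.58.1 (R 4.3.3) was fitted to all 16 arrays with the 8 pairs as a block, trended moderation, Benjamini-Hochberg adjustment and a threshold of 0.05, so the spread at 24 h enters the SEs at 12 h. The pairing comes from the design text and the shared pools. Deviations of paired arrays correlated at 0.214 to 0.56 at 12 h. At 24 h they correlated at -0.437, 0.327, 0.2 and -0.287 for pairs 1 to 4. The labels do not say more about how the pools differed.

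Named were the 12 genes in each direction with the smallest p and one direction in 4 of 4 pairs, the 5 in each direction with the largest change without overlap, 21 fixed genes (18 tested), up to 4 members of each of 26 lists with the smallest p, and further members chosen after their values were seen. The members and lists were chosen with earlier results of these data known. The fit was tested on simulated data. Other offsets, filters, scalings, probe set rules, weights, blocks and left-out replicates were tried. The oocyte mean as a covariate and leaving out a 12 h pair alone were added after seeing the data. Plots used matplotlib 3.10.9 (Python 3.11.15).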

Additional observations from a re-analysis of the deposited data

Results flagged for a closer look

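Among 272 sets of 4 values at 12 h (each named gene or marker mean, in each arm), 14 had 1 array far from the other 3 by Dixon's criterion, 5.15% of them, and chance alone sets apart about 1 in 20.

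Of the genes with the smallest p, control replicate 3 of Pyroxd2 was at a log2 level of 4.47 against 5.76 to 5.9 in the other controls, and that of Gadd45a at 7.56 against 8.06 to 8.13. Control replicate 2 of Mmd2 was at 5.16 against 4.72 to 4.77, and control replicate 1 of Fgl2 at 6.43 against 7.55 to 7.63. Control replicate 1 also stood apart for Cnnm1 (6.84 against 4.79 to 5.13) and for the monoamine transporter Slc18a2 (9.68 against 8.58 to 8.71).

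In the AMH pathway, the receptor Bmpr1b was at 7.07 in control replicate 3 against 7.95 to 8.09. Smad1 was at 8.88 in AMH replicate 2 against 9.54 to 9.6, and Id2 at 7.74 in AMH replicate 3 against 8.18 to 8.25.

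In the other lists, AMH replicate 1 stood apart for Grb14 (10.08 against 7.06 to 7.41) and Cldn3 (5.22 against 6.1 to 6.19). AMH replicate 2 did so for the cyclin Ccnb2 (9.11 against 8.3 to 8.44) and for the mean of the immune genes (5.24 against 6.46 to 6.65), and AMH replicate 3 for Mcm4 (9.77 against 8.93 to 9.07).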

How the results depend on the processing

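Across 26 alternatives, the count of genes called at 12 h, 0 with the main settings, was 3 with array weights (Igfbp5, Vstm4 and Atp1b2), 1 with each probe set on its own (Atp1b2, by its second probe set), 1 after quantile normalization (Igfbp5), and 2 (Igfbp5 and Vstm4) with the pair as a random block, with the replicate number as a block over both times and with the oocyte mean as a covariate. It was 0 without any block, where the lowest adjusted p was 0.0801, and 0 without each replicate in turn. The 788 genes at an unadjusted p under 0.05 became 1345 with array weights, 1497 with each probe set on its own (of 23238 tested), 502 after median centring and between 420 and 1022 without a replicate at both times (488 without pair 1 and 490 without pair 2 at 12 h alone, 815 at most). Median centring moved the median of all genes from 0.01 to -0.03. For the difference between 24 and 12 h, 0 calls became 21 with array weights, 2 with the oocyte covariate, 1 after quantile normalization and between 0 and 1 without a replicate. Between 6 and 9 of the 24 leading genes kept their sign at 24 h without a replicate. The filter on 12 h arrays moved Igfbp5 to its other probe set, by construction, at -0.62 (adjusted p = 0.287). Elsewhere the cause was not tested.

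Of 128 named genes, 11 changed sign somewhere: Acvr1 to 0.13 and Npc2 to -0.05 with the mean of probe sets, Alas2 to 0.01 with array weights and 0.04 with the oocyte covariate. Without a replicate, the ranges were -0.21 to 0.28 for Alas2, -0.43 to 0.21 for Amh (0.16 without replicate 2), -0.03 to 0.87 for C1qb, -0.51 to 0.02 for Fdps, -0.65 to 0.10 for Fst, -0.04 to 0.81 for Inhbb, -0.53 to 0.01 for Mvd, -0.14 to 0.03 for Oaz1 and -0.11 to 0.38 for Smad7. In all, 66 of the 128 moved by over 1.5 times or changed sign without a replicate, Ifitm1 alone among the 24 leading genes. Of 26 list medians at 12 h, 14 changed sign in some setting. Those of the ovulatory response (-0.5 to -0.2), endothelium (-0.44 to -0.32), surface epithelium (-0.33 to -0.20), DNA replication (-0.22 to -0.11) and matrix (0.09 to 0.22) did not. These ranges concern the 12 h change alone, and at 24 h the ovulatory, endothelial and DNA replication medians were above 0. Dim genes limit what can be seen, as signals near the filter level have the widest errors.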
